A study of Homo sapiens with 8 samples.

Results

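The calponins CNN1, CNN2 and CNN3, the coronins CORO1B, CORO1C and CORO2A, the transgelins TAGLN and TAGLN2, the formin DIAPH1 and the myosin light chain MYL9 were followed in human oral squamous cell carcinoma (OSCC) cells that received a miR-375-3p mimic. All 10 genes were measured, among 18239 genes in all. They were read by 48 of the 45253 probe sets that carry a single gene symbol. The cells were 4 established lines, and values by line are given in the order SAS-L1, HSC2, HSC3, then Ca9-22. Cells of each line were transfected at 20 nM either with the mimic or with miR-NT, a non-targeting mimic that served as the negative control, and total RNA was taken after 48 h. Each line gave 1 Affymetrix U219 array per condition, so the 4 miR-NT and the 4 mimic arrays form 4 pairs and no line was tested by itself.

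Calponins and transgelins are related proteins that bind along actin filaments. CNN1 and TAGLN are known from smooth muscle, whereas CNN2, CNN3 and TAGLN2 are found in many cell types. Coronins bind filaments and regulate the ARP2/3 complex, which nucleates branched actin at the leading edge of moving cells. DIAPH1 is a formin that elongates unbranched filaments downstream of the GTPase RHOA, and MYL9 is a regulatory light chain of myosin II, the motor that contracts actin bundles. The members were chosen with the mimic minus miR-NT differences of these arrays known. The study had itself picked CNN3 and CORO2A as candidate targets. They had a lower signal on these arrays and, by a target filter, a miR-375-3p target sequence in the 3′ untranslated region. The study also reported that knockdown of either gene lowered the migration of SAS-L1 cells. CNN2 and DIAPH1 had been seen to be lower, and the other genes are paralogs or partners of CNN3, CORO2A, CNN2 and DIAPH1. The differences of all members are therefore given as descriptions, without a p-value for any single member.

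The guide strand that the mimic supplies is shown because its seed is the part of a miRNA that pairs with target messages. RefSeq (GRCh38.p14) places the 22 bases of mature miR-375-3p on the minus strand of chromosome 2, from 219001648 to 219001669. Capitals mark the seed, bases 2 to 8 from the 5′ end.
hsa-miR-375-3p: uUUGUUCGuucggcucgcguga
The complement of this seed, read 5′ to 3′ in a message, is CGAACAA. Of 2370 mature human miRNA names in the table, hsa-miR-375-3p was the only 1 with this seed. Target sites in the members' messages were not analysed here.

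The values are log2 signals, so a difference of -1 is a signal lower by a factor of 2. Each gene was read from its brightest probe set, the one with the highest mean over the 8 arrays. A limma model that paired the arrays by cell line called 946 genes as lower and 1341 as higher with the mimic at a Benjamini-Hochberg adjusted p under 0.05, which is 5.19% and 7.35% of the genes. At an unadjusted p under 0.05, limma gave 1775 genes lower and 3019 higher. The median log2 difference of all genes was 0.03. Within single lines, 95% of all genes lay between -0.57 and 0.58, -0.71 and 0.64, -0.94 and 0.83, and -0.89 and 0.74, in the order of lines given above. The epithelial genes CDH1 (9.35 to 9.91), EPCAM (9.74 to 11.42) and KRT5 (8.90 to 11.61) were well above the median of all signals, 5.01, on every miR-NT array, whereas the keratin KRT14 was below it in SAS-L1 (4.61) and Ca9-22 (4.28). Of 7 measured squamous epithelial markers, KRT5 (log2 difference -1.73 ± 1.04, limma adjusted p = 0.0320) and SFN (-0.43 ± 0.20, adjusted p = 0.0293) fell and none rose, with 1 higher at an unadjusted p under 0.05. The summed linear signal of these markers was 5910 to 12219 on the miR-NT and 4710 to 10911 on the mimic arrays. The part of these falls in the values below was not tested. Neither passed when SAS-L1, HSC2 or Ca9-22 was left out (limma adjusted p = 0.0884, 0.0959 and 0.0932 for KRT5, and 0.0561, 0.0996 and 0.0800 for SFN).

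CNN3 and CNN2 were lower with the mimic in each of the 4 lines, and the brightest probe set of CNN1 was lower in none. CNN3, known as acidic calponin, had log2 signals of 8.73, 8.10, 9.88 and 8.09 on the miR-NT arrays. On the mimic arrays of the same lines they were 8.29, 7.15, 8.52 and 6.34. The groups overlapped, because the lines began from different levels, but every line was lower than its own control. The mean log2 difference of CNN3 was -1.13 ± 0.57 (SD, n = 4 cell lines), or 2.19-fold lower. It was 1.36-fold lower in SAS-L1, where -0.44 lay inside the range of 95% of all genes, and 1.94-fold, 2.57-fold and 3.39-fold lower in HSC2, HSC3 and Ca9-22, outside it. CNN3 had a single probe set, so no second reading of it was possible.

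CNN2, the calponin of many non-muscle cells, had miR-NT signals of 8.60, 8.96, 8.74 and 9.43. With the mimic they were 7.63, 8.49, 8.04 and 8.03. All 4 mimic arrays lay below all 4 miR-NT arrays. The mean log2 difference was -0.89 ± 0.41 (SD, n = 4 cell lines), or 1.85-fold lower, with the largest in Ca9-22 (-1.41) and the smallest in HSC2 (-0.46). The differences of HSC2 and HSC3 (-0.70) lay inside the range of 95% of all genes in those lines. All 9 probe sets of CNN2 were lower in each line, and their mean differences ran from -0.56 to -1.49. Of these probe sets 8 are of the types _x_at and _s_at, which can also bind related transcripts. The remaining one had the largest difference, at -1.72, -0.80, -1.17 and -2.29 in the 4 lines, so the lower signal was also seen without the cross-binding types.

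CNN1, the calponin that marks contractile smooth muscle, was dim. Its miR-NT signals were 4.83, 4.92, 4.83 and 4.92, below 5.01, the median of all signals, and its mimic signals were 4.87, 5.28, 4.97 and 5.15. The mean log2 difference was 0.19 ± 0.14 (SD, n = 4 cell lines). The other probe sets of CNN1 had mean differences from 0.12 to 0.30, of which 2 were lower in SAS-L1 (-0.16 and -0.26), and all 4 had miR-NT means below the median of all signals, where a fall could hardly be seen. The 3 calponin genes thus gave mean differences of -1.13, -0.89 and 0.19, with that of CNN1 read from dim signals.

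By their brightest probe sets, the transgelins were not lower in all 4 lines. TAGLN2, the transgelin of epithelial and blood cells, was bright, with miR-NT signals of 10.46, 10.59, 11.09 and 10.92. Its mimic signals were 10.54, 10.70, 11.21 and 11.00. Each line was slightly higher than its control, by 0.07 to 0.12, and all 5 probe sets were higher in every line, with mean differences of 0.07 to 0.16. TAGLN2 was far above the dim range in which CNN1 was read.
TAGLN, also called SM22, an early marker of smooth muscle, had miR-NT signals of 4.61, 5.04, 4.67 and 5.89 and mimic signals of 4.66, 4.86, 4.63 and 5.16. Ca9-22 stood above the other lines in both conditions and had the lowest difference, -0.72, where the other lines had 0.05, -0.18 and -0.04. The mean difference was -0.22 ± 0.35 (SD, n = 4 cell lines) and was -0.05 without Ca9-22. In all 6 probe sets of TAGLN, Ca9-22 had both the highest miR-NT signal and the lowest difference. One dimmer probe set was lower in each line (-0.13, -0.07, -0.09 and -0.51). The miR-NT mean was below 5.01, the median of all signals, in 5 of the 6 and was 5.05 in the brightest. A fall could therefore hardly be seen in the lines where TAGLN was dim.

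**Figure D1:**
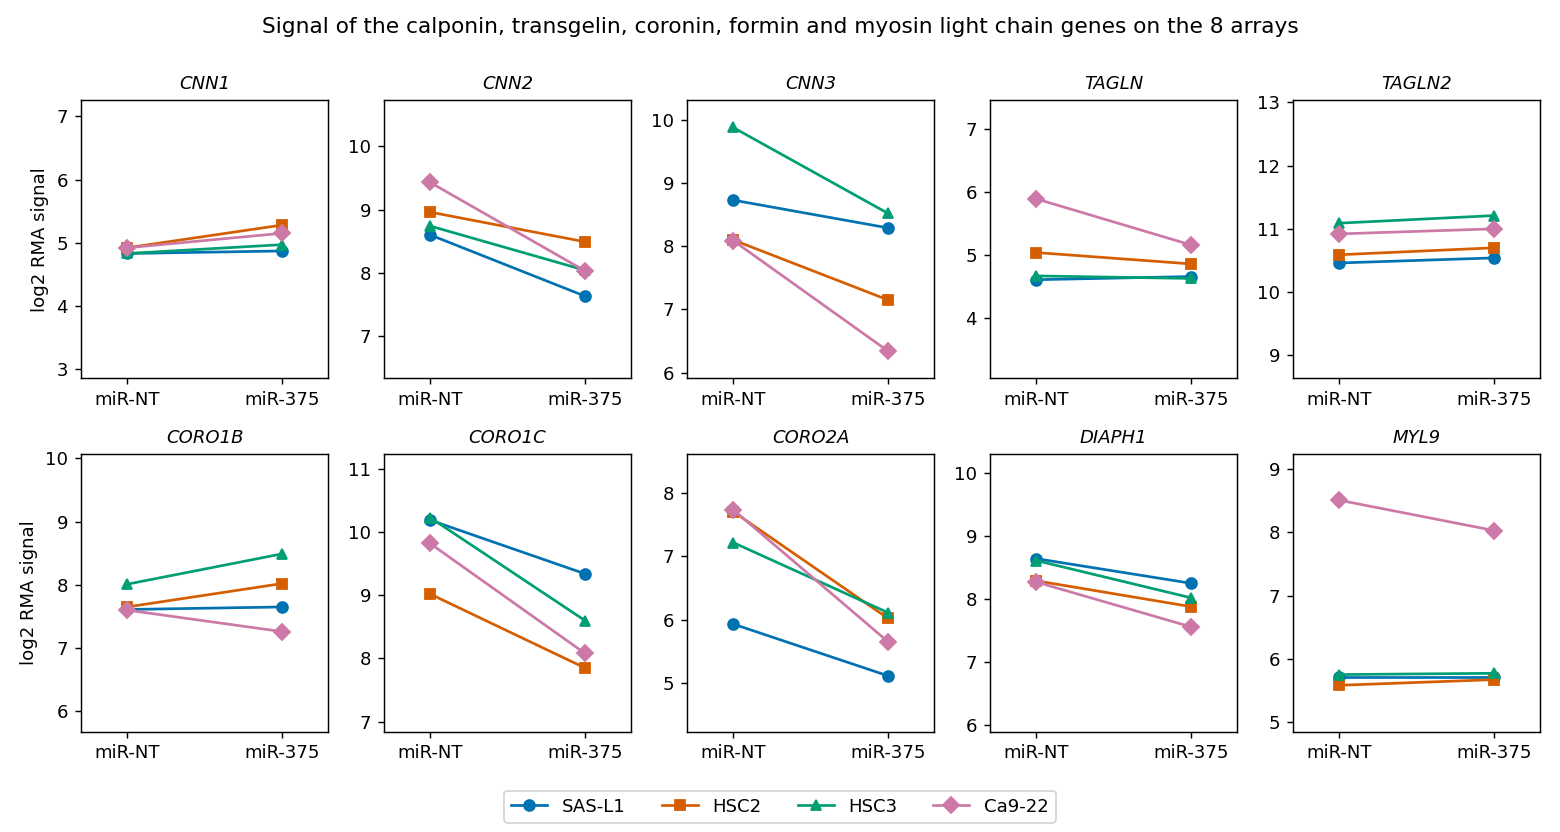
Log2 RMA signal of the 10 genes on the miR-NT and the miR-375 mimic array of each cell line, from the brightest probe set of each gene, with a line joining the arrays of a cell line. Every panel spans the same number of log2 units, so slopes can be compared: CNN2, CNN3, CORO1C, CORO2A and DIAPH1 run downward in all 4 lines, and MYL9 in Ca9-22 (8.51) stands apart from the other lines (5.58 to 5.75).

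Of the coronins, CORO2A and CORO1C were lower in each line and CORO1B was not. CORO2A, a type II coronin, had miR-NT signals of 5.93, 7.71, 7.22 and 7.74. Its mimic signals were 5.11, 6.02, 6.11 and 5.65. SAS-L1 began lowest, at about the level that the other lines reached under the mimic, and the groups overlapped through it. The mean log2 difference of CORO2A was -1.43 ± 0.57 (SD, n = 4 cell lines), or 2.69-fold lower, which only 66 of the 18239 genes exceeded. By line the signal was 1.77-fold, 3.23-fold, 2.15-fold and 4.27-fold lower. Its 4 probe sets had mean differences from -0.64 to -1.62, and all 4 were lower in every line and closest to 0 in SAS-L1.

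CORO1C, a type I coronin of lamellipodia, had miR-NT signals of 10.19, 9.02, 10.23 and 9.82 and mimic signals of 9.34, 7.85, 8.60 and 8.08 in the 4 lines. The mean log2 difference was -1.35 ± 0.41 (SD, n = 4 cell lines), or 2.55-fold lower. It was more than 2-fold lower in 3 of the 4 lines, at 2.25-fold in HSC2, 3.11-fold in HSC3 and 3.33-fold in Ca9-22, and 1.80-fold lower in SAS-L1. All 5 probe sets of CORO1C gave the same picture, with mean differences from -1.35 to -1.63, the lowest difference in Ca9-22 and the highest in SAS-L1. By their brightest probe sets, CORO2A and CORO1C were the members more than 2-fold lower in 3 lines, and none of the 10 was in all 4, where 0.28% of all genes were. The other 4 probe sets of CORO1C were more than 2-fold lower in all 4 lines, and 2 of the dimmer probe sets of CNN2 in 3 lines.

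CORO1B, a type I coronin that opposes ARP2/3 at the leading edge, had miR-NT signals of 7.61, 7.65, 8.01 and 7.60 and mimic signals of 7.65, 8.02, 8.49 and 7.26. The lines went different ways, with differences of 0.05, 0.37, 0.48 and -0.34, each inside the range of 95% of all genes in its line. The mean difference was 0.14 ± 0.37 (SD, n = 4 cell lines). Its 4 probe sets had mean differences between 0.01 and 0.14. The coronins that were not among the 10 genes, CORO1A, CORO2B, CORO6 and CORO7, were tested together with TAGLN3 as relatives of the family. None of these 5 passed the test in either direction, also at an unadjusted p under 0.05, and their differences lay between 0.04 and 0.20. Their summed linear signal was only 228.0 to 390.0 on the miR-NT arrays, and 1 of them had a miR-NT mean below the median of all signals. Low signals limit what fall can be seen in them.

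By its brightest probe set, DIAPH1 was lower by a smaller amount and more evenly. Its miR-NT signals were 8.64, 8.29, 8.61 and 8.27, and its mimic signals were 8.25, 7.88, 8.02 and 7.56. The 4 mimic arrays lay below the 4 miR-NT arrays, although the highest of the former and the lowest of the latter differed by very little. The mean log2 difference was -0.53 ± 0.16 (SD, n = 4 cell lines), or 1.44-fold lower, and each line's difference lay inside the range of 95% of all genes in that line. Of 8 probe sets 7 were lower in each line. The exception was dim, with signals from 3.74 to 3.99 on all arrays and a mean difference of -0.03. Mean differences of the probe sets ran from -0.82 to -0.03, and in most of them the conditions overlapped. Several were less even than the brightest and left the range of 95% of all genes. One had -1.13 in HSC3 and -1.03 in Ca9-22, and others had -1.64, -1.15 and -1.14 in Ca9-22.
MYL9 divided the lines and not the conditions. Its miR-NT signals were 5.71, 5.58, 5.75 and 8.51, and the mimic signals were 5.71, 5.67, 5.77 and 8.03. In Ca9-22 it was 1.39-fold lower with the mimic, and in the other lines it differed by at most 0.09. The dimmer probe set differed by -0.14, 0.23, 0.25 and -0.39. Both probe sets of MYL9 are of the type _x_at, so a signal from related light chain transcripts cannot be told apart from that of MYL9.

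By count, 5 of the 10 members (CNN2, CNN3, CORO1C, CORO2A and DIAPH1) passed the limma test as lower, beside 5.19% of all genes, and none passed as higher, beside 7.35%. Because members were chosen on this contrast, nothing can be read from that share. At an unadjusted p under 0.05, limma gave 5 members lower and 1 higher, CNN1, beside 1775 and 3019 of all 18239 genes. The methods' t-test without pairing gave 4 lower and 0 higher unadjusted, beside 530 and 616 of all genes. After Benjamini-Hochberg it called 0 genes in either direction, so the absence of members there says nothing particular to them. The mean difference was over 2-fold lower for 3 members, beside 1.05% of all genes. The count of members whose mimic arrays all lay below all miR-NT arrays was 2, beside 1.94% of all genes. Fitted as separate features, 23 of the 48 member probe sets passed as lower, beside 5.39% of all probe sets, and 0 as higher, beside 5.96%. The 5 members that passed held 27 probe sets, of which 26 were lower in each of the 4 lines, and the other 5 members held 21, of which 1 was. By their brightest probe sets, 11.9% of all genes were lower in each line. The members were split by these same arrays, so the contrast of the probe sets follows from the split. Probe sets of a gene on the same arrays are also not replicates.
Some calls were lost when a line was left out, as they were over all genes. Over all genes, 797, 351, 534 and 535 were called lower without SAS-L1, HSC2, HSC3 or Ca9-22, beside 946 with all lines. CNN2 was not called without SAS-L1 (log2 difference -0.86), CNN3 without HSC2 (-1.19), HSC3 (-1.05) or Ca9-22 (-0.92), and CORO2A without HSC2 (-1.34). CORO1C and DIAPH1 were called with any 1 line left out. The call of CNN3 was thus lost without HSC2 although the mean difference was larger there.

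**Figure D2:**
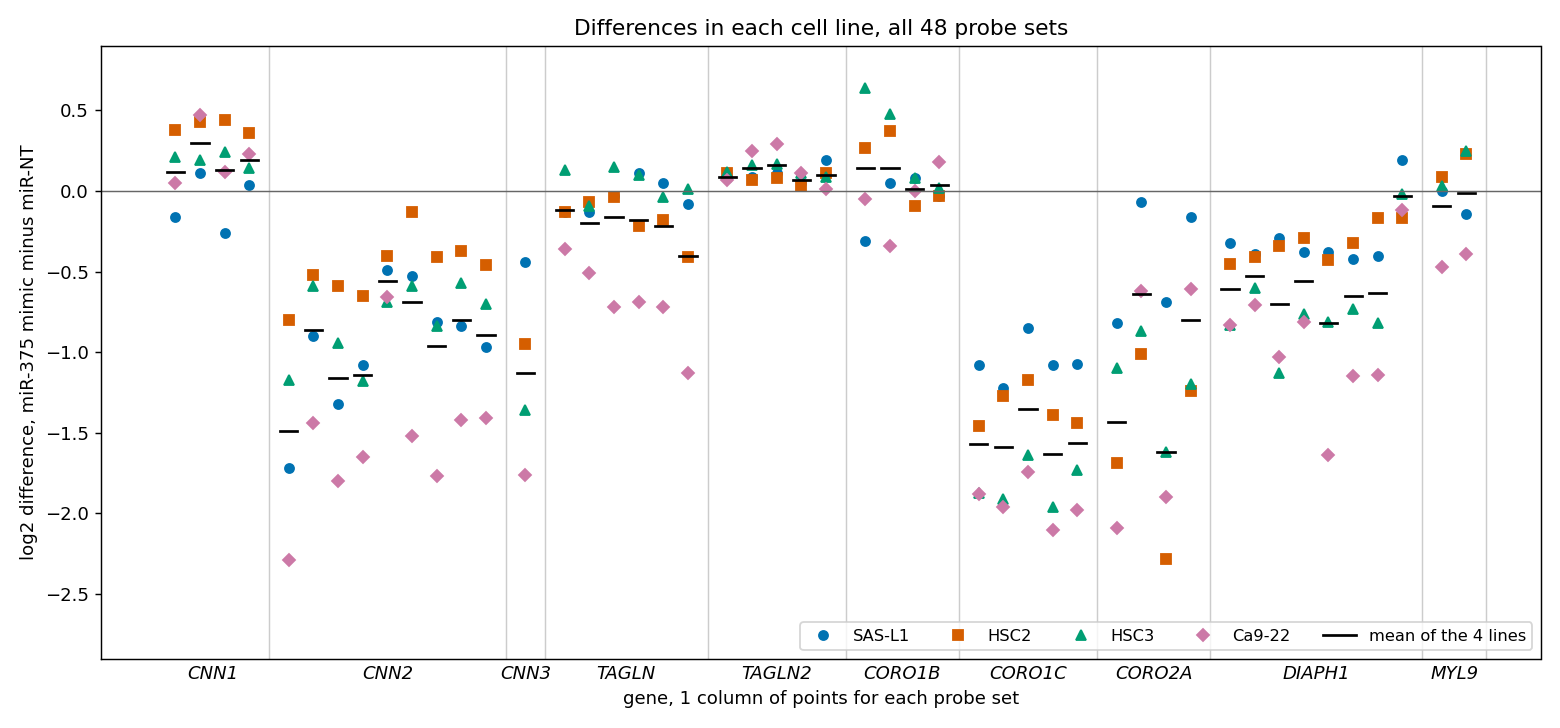
Log2 difference, mimic minus miR-NT, of each of the 48 probe sets of the 10 genes in each of the 4 cell lines, 1 column of points per probe set and a black bar at the mean of the 4 lines. The columns of CNN2, CORO1C and CORO2A lie wholly below 0, those of TAGLN2 above it, and 1 dim column of DIAPH1 stays at 0.

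The lines differed in how far the members moved. Ca9-22 had the lowest difference of the 4 lines for all 5 of the members that passed, read from the brightest probe sets, and in 21 of their 27 probe sets. For CORO2A this held in 1 of 4 probe sets, and the others were lowest in HSC2 (-2.28, -1.01 and -1.24, beside -1.90, -0.62 and -0.61 in Ca9-22). SAS-L1 had the difference nearest to 0 for 4 of the 5, the exception being CNN2, where it was HSC2 in all 9 probe sets. Among all 10 members Ca9-22 had the lowest difference for 9, by the brightest probe sets. Of the members that did not pass, this held in all 6 probe sets of TAGLN and both of MYL9. It held in only 1 of 4 probe sets of CORO1B and 2 of 5 of TAGLN2. The brightest of TAGLN2 gave 0.07 in Ca9-22 beside 0.08 in SAS-L1, and in other probe sets Ca9-22 was the highest line (0.25 and 0.29). The median log2 difference of the 10 members by line was -0.20, -0.29, -0.32 and -0.71. The share of all genes more than 2-fold lower was 0.587%, 1.17%, 2.2% and 2.02%, so the lines also differed outside these members. With 1 array per line and condition, the differences between lines were not tested.

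Before any mimic effect, the lines already differed in these genes on the miR-NT arrays. The span from the lowest to the highest line was 2.93 on the log2 scale (7.62-fold) for MYL9, highest in Ca9-22, where the median span of all genes was 0.42 and the 95th percentile was 1.95. It was 1.81 (3.51-fold) for CORO2A, lowest in SAS-L1 in all 4 probe sets. It was 1.78 (3.44-fold) for CNN3, highest in HSC3 and lowest in Ca9-22 and HSC2, which at 8.09 and 8.10 were nearly equal. TAGLN spanned 1.28 and was highest in Ca9-22. CORO1C spanned 1.22 and was lowest in HSC2 in all 5 probe sets.
The remaining members were more even. CNN2 spanned 0.83, highest in Ca9-22 in 8 of 9 probe sets, and TAGLN2 spanned 0.63, highest in HSC3 and lowest in SAS-L1 in all 5 probe sets. CORO1B spanned 0.41, DIAPH1 0.36 and CNN1 0.09. The order of neighbouring lines was not tested, since a line had 1 miR-NT array and probe sets on the same array are not replicates. MYL9 and TAGLN, which are known from contractile cells, were both highest in Ca9-22. Of the smooth muscle markers, ACTA2 (6.19) and ACTG2 (5.75) were highest there too. In contrast, SMTN (8.37 in HSC2 and 7.01 in Ca9-22), MYH11 (6.13 and 6.07), DES (5.28 and 4.96) and LMOD1 (4.23 and 4.02) were highest in HSC2. ACTG2 (5.69 to 5.75) and MYH11 (5.97 to 6.13) were nearly level over the 4 lines, so their highest line means little. The smooth muscle markers as a list overlapped between the conditions, with a summed linear signal of 310.5 to 582.3 on the miR-NT arrays and 300.5 to 560.0 on the mimic arrays. None of its 7 genes, CNN1 among them, passed the limma test, with 0 lower and 1 higher at an unadjusted p under 0.05. Of this list LMOD1 (4.06) and CNN1 (4.88) had miR-NT means below the median of all signals.
No gene of the 8 fibroblast, 5 immune or 4 endothelial markers measured passed the limma test, also at an unadjusted p under 0.05. Their miR-NT means were below the median of all signals for 7, 3 and 3 genes. Summed linear signals were 118 to 133 on miR-NT and 122 to 135 on mimic arrays for fibroblast markers, 180.2 to 231 and 202 to 234 for immune markers, and 96.2 to 113 and 102 to 115 for endothelial markers.

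Across the 8 arrays, the genes most like CNN3, CNN2 and CORO2A were ranked by Pearson's r of the log2 signals over 10934 brighter genes outside the 10. These values are descriptions, since the arrays share their lines and conditions. The signal of CNN3 was most like those of MAP2K4 (r = 0.993), a kinase of JNK signaling, SRRM1 (0.988), a splicing coactivator, and SLC25A11 (0.981), a mitochondrial carrier. That of CNN2 was most like PARVA (0.963), an actin-binding parvin of focal adhesions, KIF3B (0.958), a kinesin motor, and LRRC59 (0.954). That of CORO2A was most like CCDC88A (0.976), an actin-binding protein also called girdin, FAM217B (0.967) and again PARVA (0.963). Among the members, CNN2 and CORO2A had r = 0.903, CNN3 had r = 0.889 with DIAPH1 and 0.814 with CORO1C, and CNN3 and CNN2 had r = 0.229. The calponins that were both lower with the mimic thus followed different patterns over the lines.

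The members' partners were read from 8 lists of actin regulators and relatives with 117 genes outside the 10, of which 107 were measured and the rest not analysed here. Of the measured genes 13 fell, 3 rose and 91 did not pass the limma test, where 5.19% and 7.35% of all genes were called. At an unadjusted p under 0.05, 23 were lower and 13 higher by limma, beside 1775 and 3019 of all 18239 genes. These lists were chosen with earlier results of this contrast known, so the counts and the p-values below describe these arrays and are not independent evidence of a direction. Their median log2 difference was -0.04, beside 0.03 for all genes. Of 19 measured genes of actomyosin contraction, 6 fell, 2 rose and 11 did not pass, with a median of -0.29. MYH10, a heavy chain of non-muscle myosin II, was 2.51-fold lower (-1.33 ± 0.42 on the log2 scale, SD over the 4 lines, limma adjusted p = 0.00739) and passed with any line left out, as did PPP1R12A, the targeting subunit of myosin phosphatase (-0.71 ± 0.26, adjusted p = 0.0125). ROCK2, the kinase that acts on myosin light chains downstream of RHOA, was 1.91-fold lower (-0.93 ± 0.46, adjusted p = 0.0209), but did not pass without HSC2 (0.0924), HSC3 (0.0667) or Ca9-22 (0.0654). The tropomyosin TPM1 was 1.37-fold higher (adjusted p = 0.0269; 0.0823, 0.0924 and 0.0563 with SAS-L1, HSC2 or HSC3 left out). PPP1CB, a catalytic subunit of myosin phosphatase, was 1.19-fold higher (adjusted p = 0.0401), a call lost whichever line was left out (0.0847 to 0.136).
Of 12 formins beside DIAPH1, FMNL2 and FHOD3 fell, none rose and 10 did not pass, with a median of -0.09 and 4 lower and 0 higher at an unadjusted p under 0.05. FMNL2, a formin of lamellipodia, was 1.72-fold lower (-0.78 ± 0.24, limma adjusted p = 0.00837), and FHOD3 was 1.67-fold lower (-0.74 ± 0.31, adjusted p = 0.0162, and 0.0678 without HSC2). None of the 7 measured subunits of the ARP2/3 complex passed, with 2 lower and 1 higher at an unadjusted p under 0.05 and a median of -0.08. Of 14 measured ARP2/3 activators, BRK1, a small subunit of the WAVE complex, was 1.40-fold higher (0.49 ± 0.05, adjusted p = 0.00721), none fell and 13 did not pass, with 0 lower and 4 higher at an unadjusted p under 0.05. The median of this list was 0.03. BRK1 was read from an _x_at probe set and had no probe set outside the _x_at and _s_at types, which can also bind related transcripts.
Of 20 measured genes of actin turnover, CFL2 and SSH1 fell, none rose and 18 did not pass, with a median of 0.06 and 2 lower and 4 higher at an unadjusted p under 0.05. CFL2, a cofilin that severs filaments, was 2.02-fold lower (-1.02 ± 0.45, limma adjusted p = 0.0161), and SSH1, a phosphatase that activates cofilin, was 1.49-fold lower (-0.58 ± 0.27, adjusted p = 0.0228). CFL2 did not pass without HSC2 (0.0714), HSC3 (0.0518) or Ca9-22 (0.0538), nor did SSH1 (0.0962, 0.0702 and 0.0792). When its probe sets were averaged, SSH1 gave -0.18 on the log2 scale (adjusted p = 0.0654). Of 17 measured bundling proteins and membrane linkers, PLS1, EZR and ACTN1 fell by 0.30, 0.48 and 0.40 on the log2 scale (adjusted p = 0.0354, 0.0354 and 0.0377), and none rose, with 6 lower and 1 higher at an unadjusted p under 0.05. These 3 calls were lost whichever line was left out, with adjusted p from 0.0807 to 0.110 for PLS1, 0.0535 to 0.111 for EZR and 0.0514 to 0.112 for ACTN1. The median of this list was -0.15. None of the 13 actins and genes of the SRF-MRTF axis passed, with 1 lower and 1 higher at an unadjusted p under 0.05 and a median of -0.04.

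**Figure D3:**
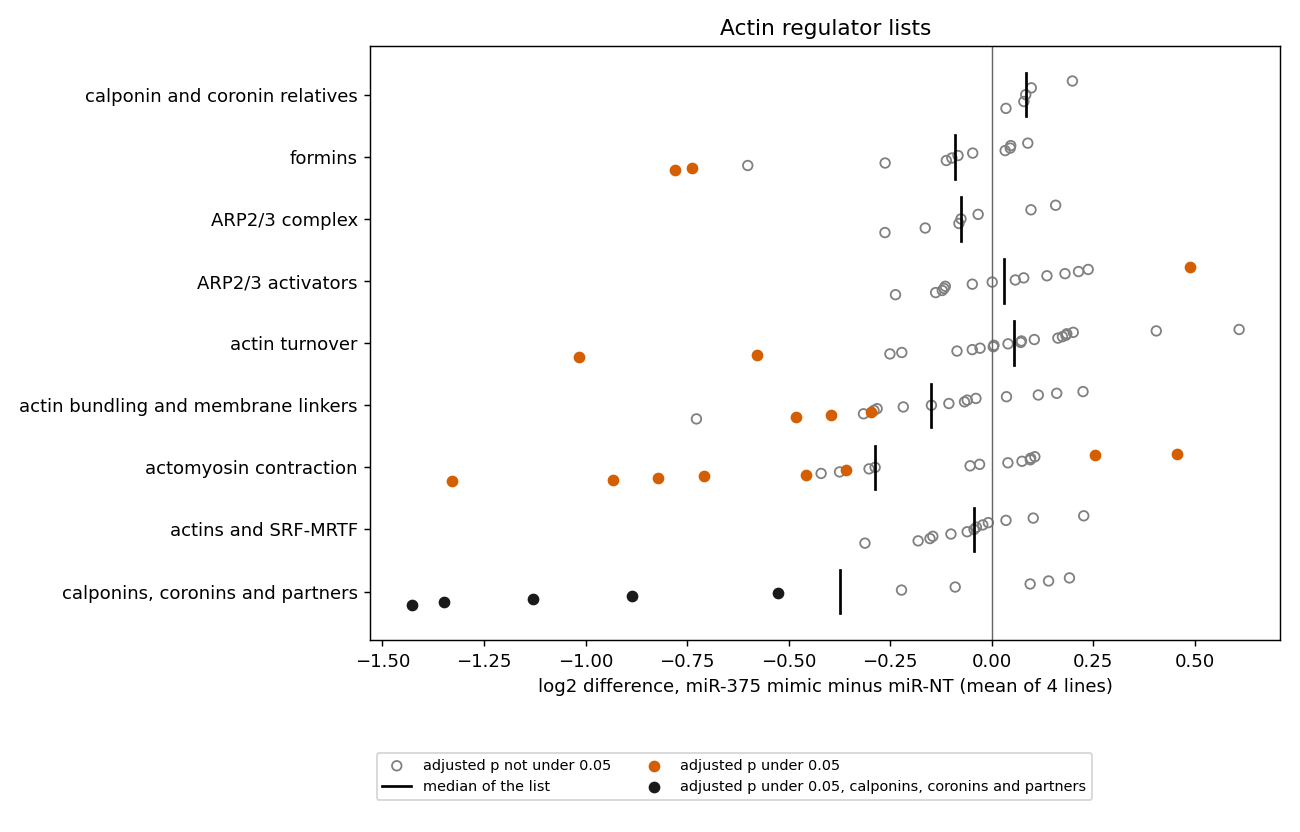
Mean log2 difference over the 4 cell lines, mimic minus miR-NT, of each measured gene in the 8 lists of actin regulators and in the 10 calponins, coronins and partners (bottom). Each point is a gene, filled points passed the limma test at an adjusted p under 0.05, and black bars mark medians. The filled points of actomyosin contraction lie mostly on the lower side, and 5 of the 10 genes at the bottom are filled.

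Several calponin and transgelin genes are known targets of SRF, a transcription factor that binds the CArG box, so RefSeq promoter windows (GRCh38.p14, 250 bases before to 50 after a gene's start) were searched for it. A match on one strand is also a match on the other. Windows were found for 8 of the 10 members and not for TAGLN and MYL9. CNN2 had a CArG box in its 1 window, starting 89 bases before the start, and the windows of the other 7 had none, where 1.29% of 35116 windows of all genes held one. The stretch is shown with the box in capitals, at chr19:1026509-1026538 on the plus strand.
CNN2: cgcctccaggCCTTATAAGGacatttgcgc
The match is a description of these letters and does not show that SRF binds there in these cells.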

How the data were processed

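Total RNA of 4 OSCC cell lines was measured on 8 Affymetrix U219 arrays. The authors computed the deposited log2 signals by the robust multichip average (RMA), named in the submitters' processing notes, run in GeneSpring GX. RMA subtracts background, makes the arrays share a distribution and merges the probes of each probe set. No build is stated for the array, so probe sets have no coordinates here, and the printed sequences carry those of RefSeq. The array medians lay between 4.96 and 5.00, and the number of arrays limits the precision. Of 49386 probe sets, 45253 had 1 gene symbol, 1327 several and 2806 none, controls included; 45172 were renamed by matching gene identifiers to RefSeq.

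Each gene took its brightest probe set. Differences were tested by limma 3.58.1 under R 4.3.3 (lmFit, eBayes). Cell line was the blocking term, and p-values were adjusted by Benjamini-Hochberg over 18239 genes. The fit was checked on simulated data. The cell line pairs the arrays by design; deviations from the condition means correlated at 0.836 to 0.886 within lines. Nothing says that the arrays came from repeated cultures. With the block, p-values thus rest on how the mimic minus miR-NT difference varied between lines. With 1 array per line and condition, noise of single cultures and arrays cannot be separated from that variation.

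The members and lists were chosen with earlier results of these data known. Besides the members, up to 3 genes in each direction with the smallest p were named per list, and the 3 most correlated genes for CNN3, CNN2 and CORO2A. The lists were calponin and coronin relatives, formins, ARP2/3 complex, ARP2/3 activators, actin turnover, actin bundling and membrane linkers, actomyosin contraction, actins and SRF-MRTF, and markers of squamous epithelial, smooth muscle, fibroblast, immune and endothelial cells. Alternatives were a fit without the block, other summaries and normalizations, a filter that left out the dimmest 40% of genes, a robust variance trend, leaving out each line, and the methods' t-test. Omission of _x_at and _s_at probe sets was added after seeing the data. Background correction was not varied, since scanner files were not used here.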

Additional observations from a re-analysis of the deposited data

Results flagged for a closer look

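A sample was examined further where its gap to the nearest of the 3 others was large against the range of the group. Over the 10 members, 30 groups of 4 arrays were examined and 4 values stood apart, where chance marks about 1 in 20 groups. MYL9 stood apart in Ca9-22 on the miR-NT array (log2 signal 8.51), on the mimic array (8.03) and in its difference (-0.47), and these 3 values share the same arrays. CORO1B stood apart in HSC3 on the miR-NT array, with a log2 signal of 8.01 where the other lines had 7.60 to 7.65. Its span of 0.41 was slightly below the median span of all genes, 0.42. HSC3 was highest in 2 of the 4 probe sets of CORO1B, and in the dimmer of these it lay close to SAS-L1 (5.56 and 5.45).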

How the results depend on the processing

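Of the 10 members, 5 were lower in the limma fit blocked by cell line, and the same 5 were called when probe sets were averaged or each counted, under both other normalizations, with dim genes left out, with another variance model and without _x_at and _s_at probe sets. Without the block for cell line 0 members were called, where 6 of all 18239 genes were lower and 0 higher. The methods' t-test after Benjamini-Hochberg called 0 members and 0 genes in all. Both settings called so few genes that a count of 0 says nothing particular to the members. With 1 line left out, 3 to 4 members were called lower, beside 351 to 797 of all genes, where 946 were called with all lines. No setting called a member higher. Of the genes of the pathway lists, 13 were lower and 3 higher with the block. Without it 0 and 0 were called (7 and 2 at an unadjusted p under 0.05, beside 584 and 590 of all genes). The methods' t-test gave 0 and 0 after adjustment, or 6 and 1 unadjusted, beside 530 and 616 of all genes. Counting any probe set of a gene gave 21 and 5. With 1 line left out, 4 to 9 were lower and 1 to 2 higher, beside 351 to 797 and 318 to 858 of all genes. Without the cross-binding probe sets, 11 of the 93 genes still measured were lower and 1 was higher, and BRK1 could not be read. Without _x_at and _s_at probe sets, a choice made after seeing the data, CNN2 had a log2 difference of -1.49, and subtracting array medians moved TAGLN2 to 0.07. A call can be lost on 3 lines through the smaller number of arrays alone. Dim signals, as for CNN1 and TAGLN, limit what fall can be seen.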
